A study of Mus musculus with 6 samples.

Results

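Olfml3, a secreted protein of the olfactomedin family, was measured in lenses of newborn (P0) mice together with other genes that encode an olfactomedin domain. The set held 5 gene symbols, Olfml3, Olfml1, Olfm1, Olfm3 and Myoc, of which 3 were among the 12393 genes that have a probe set annotated to a single symbol. It was chosen by the measured level of Olfml3, which was 8.05-fold lower in the mutants, so the difference of Olfml3 between the groups is given as a description, without a test. Probe sets annotated to a single one of these symbols numbered 7, of which 1 belonged to Olfml3, 3 to Olfm1 and 3 to Olfm3. Olfml1 and Myoc had 0 such probe sets here and are not analysed. A probe set is a group of short array probes whose brightness is summarised into 1 value for a transcript, and levels are given below as log2 of that intensity, so that 1 unit is a doubling.

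The olfactomedin domain is a beta-propeller fold found in extracellular proteins, many of which assemble into oligomers and bind matrix proteins or receptors. Members are known in the eye above all through Myoc (myocilin), a protein of the trabecular meshwork whose mutations cause forms of open-angle glaucoma, and through Olfm3 (optimedin), which is expressed in retina and brain. Olfml3 is secreted, has been described as a BMP4-binding factor of blood vessel cells and is also a gene enriched in microglia of the mouse.

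The mutant group was 3 arrays of lens RNA from Le-AP-2alpha conditional mutants, in which Tfap2a (Tcfap2a in the labels), the gene of the transcription factor AP-2alpha, is the target, and the other group was 3 arrays from wild-type littermates at the same age. In published work the prefix Le refers to Le-Cre, a transgene in which Pax6 regulatory sequence drives Cre recombinase in the lens-forming surface ectoderm and its derivatives. The labels do not spell out the Cre driver, the second Tfap2a allele, the sex of the animals, or whether a sample was 1 animal or a pool. P-values therefore measure the spread between these samples, which may be technical, and 6 arrays limit the precision.

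A few facts of the whole series bear on what follows. The lens crystallin Cryaa lay between 13.63 and 13.76 in mutants and between 13.67 and 13.81 in wild types (log2), near the top of the scale on every array. The signal of Tfap2a was no lower in mutants, its brightest probe set having 9.68 ± 0.13 in mutant lenses and 9.06 ± 0.63 in wild-type lenses (log2, SD, n = 3 each), and the part of the gene that its probes cover is not known here, so it does not check the deletion. Wild-type replicate 1 stood apart, correlating with the rest at Pearson r = 0.926 to 0.945 over all probe sets, where the remaining 5 correlated with each other at 0.974 to 0.985. Values without it are given where they matter. Differences are mutant minus wild type from limma's linear model over all 22626 probe sets, with its standard error, and adjusted p is by Benjamini-Hochberg over the same probe sets with a threshold of 0.05. The share of probe sets called was 0% (0 of 22626), and 3.28% had an unadjusted p under 0.05.

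Olfml3 was low in every mutant lens and well above the middle of the range in every wild-type lens. Its probe set, 1448475_at, had log2 levels of 4.22, 4.37 and 4.27 in mutants, against 8.01, 7.01 and 6.85 in wild types. In linear intensity these were 18.6, 20.7 and 19.2 units in mutants, against 258.3, 129.3 and 115.6 units in wild types. The groups did not overlap, and the lowest wild type was 2.48 above the highest mutant on the log2 scale. Such a separation, with every mutant array below every wild-type array, was seen for 4.61% of all probe sets, and nothing is read from it for Olfml3, since this contrast chose the gene.

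The mean log2 level of Olfml3 was 4.29 ± 0.08 in mutant lenses and 7.29 ± 0.63 in wild-type lenses (SD, n = 3 each), a difference of -3.01 ± 0.33 (SE). With all 6 arrays, 0 of the 22626 probe sets had a lower difference, which is a description, since this contrast chose the gene. Without wild-type replicate 1, the highest of the 6 arrays for this gene, the difference was -2.65, or 6.27-fold lower in mutants. Within each array, Olfml3 lay at the 39.6th to 41.8th percentile of probe sets in mutants and at the 65.7th to 77.4th percentile in wild types. All mutant values were thus below the median of their own array, and the median over arrays ran from 5.19 to 5.32 (log2). The files used here hold no detection call, so how much of the mutant signal lies above background is unknown, and the fold could be compressed by it. In whole lenses, fewer cells that express a gene and less RNA per cell cannot be told apart.

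**Figure D1:**
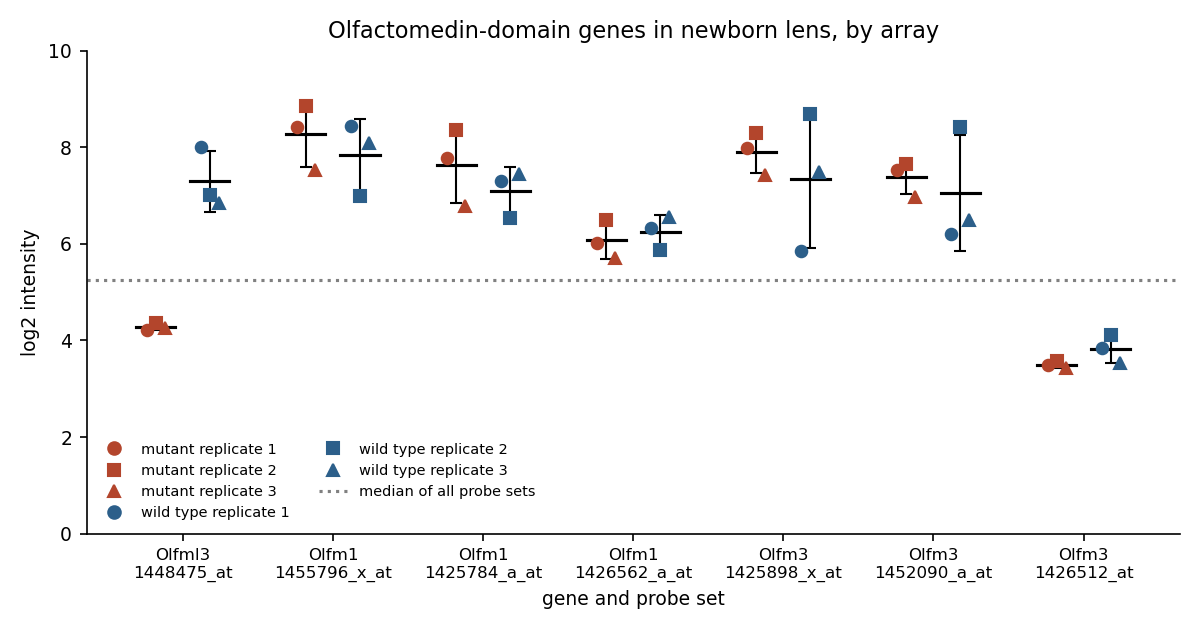
Log2 intensity (vertical axis) of each of the 7 probe sets of Olfml3, Olfm1 and Olfm3 in 3 mutant arrays (red, left of each pair) and 3 wild-type arrays (blue); bars are the mean and SD, and the dotted line is the median of all probe sets. Olfml3 lies near 4.29 in mutants and 7.29 in wild types with no overlap, whereas the groups overlap at each Olfm1 and Olfm3 probe set.

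The bases upstream of Olfml3 are shown because AP-2alpha, the factor targeted in the mutants, binds GC-rich palindromes, and this window can be read for those letters. The 250 bases before the annotated start of Olfml3 lie at chr3:103738002-103738251 on the minus strand of GRCm38.p6 (RefSeq), and capitals mark matches to GGGCGG, a GC box, or its reverse complement.
Olfml3: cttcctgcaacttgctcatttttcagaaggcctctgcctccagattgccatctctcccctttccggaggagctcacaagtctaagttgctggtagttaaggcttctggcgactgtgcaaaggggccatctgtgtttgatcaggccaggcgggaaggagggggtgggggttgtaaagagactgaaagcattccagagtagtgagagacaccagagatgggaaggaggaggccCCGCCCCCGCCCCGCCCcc
The window held 0 matches to GCCNNNGGC and 0 to GCCNNNNGGC, which are AP-2 palindromes, each searched on both strands. Other forms of the AP-2 site were not searched. It held 3 GC boxes, all read as the reverse complement within the last 19 bases before the start, of which the 2 nearest the start share 1 base. Among 32851 promoters of the same length, 13.7% held GCCNNNGGC, 12.3% held GCCNNNNGGC and 32.7% held GGGCGG. A match or its absence describes these letters in this window alone.

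Next to Olfml3 on chromosome 3 lie Hipk1 and Syt6, whose differences were small beside that of Olfml3. These neighbours were taken by position after the values of Olfml3 were known. Hipk1, a homeodomain-interacting protein kinase, was at 8.48 ± 0.24 in mutant lenses and 7.91 ± 1.67 in wild-type lenses (log2, SD, n = 3 each), a difference of 0.57 ± 0.78 (SE), and of -0.36 without wild-type replicate 1. Syt6, a synaptotagmin on the other side, was at 2.82 ± 0.14 in mutant lenses and 3.06 ± 0.08 in wild-type lenses, a difference of -0.24 ± 0.17 at levels far below the median probe set. For Syt6 every mutant array was below every wild-type array, as for 4.61% of all probe sets.

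Olfm1 (noelin 1), a secreted glycoprotein of the nervous system that promotes neural crest formation in the chick, was measured by 3 probe sets that did not all point the same way. The brightest, 1455796_x_at, had log2 levels of 8.42, 8.86 and 7.54 in mutants, against 8.43, 6.99 and 8.08 in wild types. The groups overlapped, with wild-type replicate 2 lowest and mutant replicate 2 highest. The second, 1425784_a_at, had 7.79, 8.36 and 6.78 in mutants, against 7.30, 6.53 and 7.45 in wild types, with the same arrays at the ends. The dimmest, 1426562_a_at, had 6.02, 6.50 and 5.71 in mutants, against 6.33, 5.88 and 6.55 in wild types.

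The differences of Olfm1 were 0.44 ± 0.48, 0.55 ± 0.45 and -0.18 ± 0.29 (log2, SE) in that order, and the 95% interval of the first ran from -0.72 to 1.60. Each had a limma adjusted p of 0.999. Under the alternative settings the brightest probe set differed by 0.02 to 0.81. Over the 6 arrays the brightest probe set correlated with the second at Pearson r = 0.94 and with the dimmest at r = 0.70, which is a description of arrays that share their RNA between probe sets. Olfm1 is the only measured member with a match to either of the searched palindromes in a window before an annotated start. Of its 2 annotated windows, the one at chr2:28205439-28205688 on the plus strand of GRCm38.p6 (RefSeq) held 3 matches to GCCNNNNGGC, in capitals below, and 0 to GCCNNNGGC.
Olfm1: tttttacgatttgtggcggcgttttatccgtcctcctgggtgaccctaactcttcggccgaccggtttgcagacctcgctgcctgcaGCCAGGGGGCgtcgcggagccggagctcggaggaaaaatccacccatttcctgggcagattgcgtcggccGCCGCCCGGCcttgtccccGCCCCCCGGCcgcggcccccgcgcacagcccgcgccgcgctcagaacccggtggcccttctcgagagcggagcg
These matches begin 163, 93 and 74 bases before the start, and the window has a GC content of 69.2%, against a median of 52.4% over all promoters. The other Olfm1 window, with the same GC content, and both windows of Olfm3 held 0 matches to either palindrome.

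At its brighter probe sets, Olfm3 (optimedin) varied more among wild types than between the groups. Its brightest probe set, 1425898_x_at, had log2 levels of 8.0, 8.29 and 7.43 in mutants, against 5.86, 8.70 and 7.49 in wild types. Both the lowest and the highest array were wild types, replicate 1 and replicate 2, and the 3 mutants lay between them. The second probe set, 1452090_a_at, had 7.53, 7.65 and 6.98 in mutants, against 6.21, 8.42 and 6.50 in wild types, with the same arrays at the ends. The third, 1426512_at, was dimmer than the median probe set, at 3.50 ± 0.07 in mutant lenses and 3.82 ± 0.29 in wild-type lenses (SD, n = 3 each).

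The differences of Olfm3 were 0.56 ± 0.69, 0.34 ± 0.59 and -0.32 ± 0.21 (log2, SE) in that order, each with a limma adjusted p of 0.999. The 95% interval of the first ran from -1.10 to 2.22. Without wild-type replicate 1 the same probe sets differed by -0.19, -0.08 and -0.32, so the sign of the brighter ones rested on that array, and under all settings run the first ranged from -0.38 to 1.23. The probe sets 1425898_x_at and 1452090_a_at correlated at r = 0.90 over the 6 arrays, and the dim one correlated with them at r = 0.08 and 0.40. Olfml3 correlated with the probe sets of Olfm1 at r = -0.24, -0.40 and 0.30 and with those of Olfm3 at r = -0.48, -0.33 and 0.70 over the same arrays, each from the brightest to the dimmest, so the dimmest probe set of each gene had the opposite sign to the brighter ones.

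Other genes with an olfactomedin domain were read from a list of 8, of which 2 were measured and 0 were called. Adgrl1 (latrophilin 1), an adhesion receptor with an extracellular olfactomedin domain, had log2 levels of 9.47, 9.90 and 9.79 in mutants, against 9.11, 9.56 and 9.46 in wild types. The ranges overlapped narrowly, through mutant replicate 1, and the difference was 0.34 ± 0.22 (SE; limma adjusted p = 0.999). A second Adgrl1 probe set, below the median level, had 3.27 ± 0.08 in mutant lenses and 3.71 ± 0.17 in wild-type lenses (SD, n = 3 each), a difference of -0.44 ± 0.18, so the gene has no settled direction. At this second probe set every mutant array was below every wild-type array, as for 4.61% of all probe sets. Olfml2b, a photomedin of the extracellular matrix, was dim, at 2.87 ± 0.24 in mutant lenses and 3.36 ± 0.51 in wild-type lenses, a difference of -0.49 ± 0.30, and of -0.77 to -0.26 with 1 array left out.

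**Figure D2:**
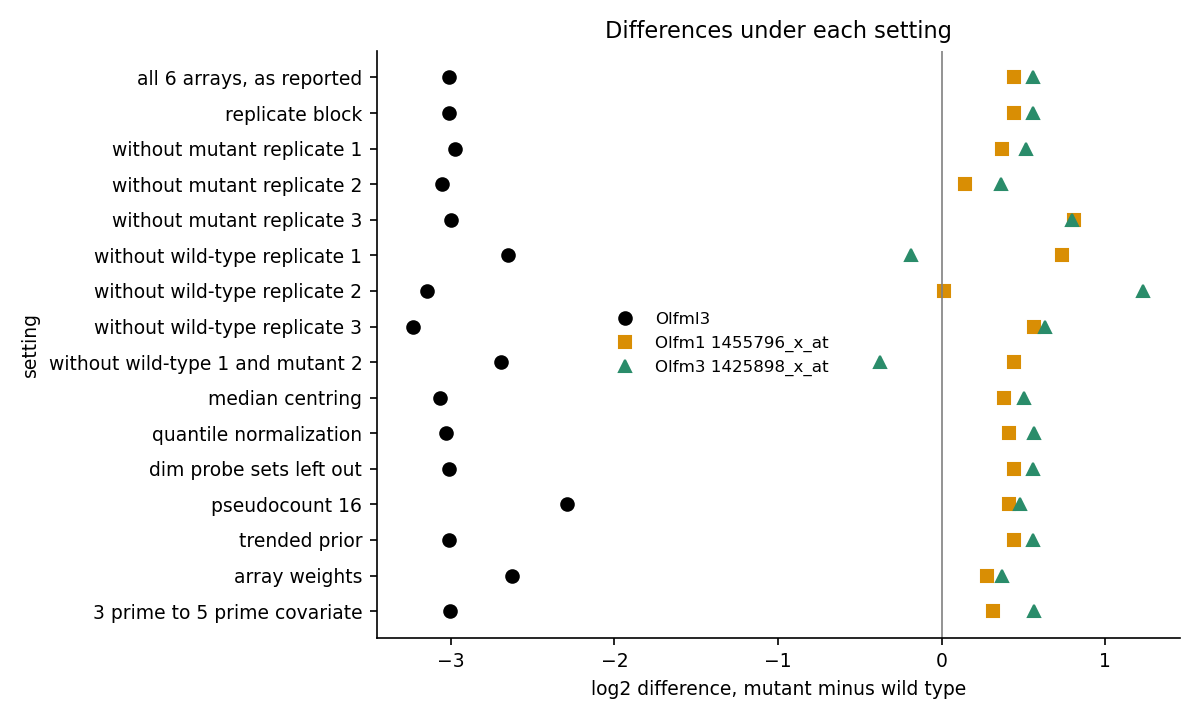
Log2 difference, mutant minus wild type (horizontal axis), of Olfml3 and of the brightest probe sets of Olfm1 and Olfm3 under each processing setting (rows). Olfml3 stays between -3.23 and -2.29, while Olfm3 lies on both sides of 0 and Olfm1 comes as near to 0 as 0.02.

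Proteins through which olfactomedin proteins are known to act were taken as a list of 21, covering receptors and matrix proteins bound by Olfm1, Olfm3, myocilin, gliomedin and the latrophilins, and 14 were measured. Of these, 6 had higher and 8 lower values in mutants, 0 were called, and the median difference was -0.02 (log2), against -0.01 over all 12393 genes. Gria2, an AMPA receptor subunit found in complexes with Olfm proteins in brain, had the largest difference. It was at 7.01, 7.79 and 7.17 in mutants, against 4.22, 6.28 and 6.0 in wild types. Every mutant array was above every wild-type array, as for 3.74% of all probe sets.

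The difference of Gria2 was 1.82 ± 0.56 (log2, SE; limma adjusted p = 0.999), and it was 1.18 without wild-type replicate 1. A second, dim Gria2 probe set differed by 0.41 ± 0.27. Fn1 (fibronectin), a matrix protein that myocilin binds, differed by 0.77 ± 0.38, and by 0.50 without mutant replicate 2. Gria1, another AMPA receptor subunit, stood at 0.57 ± 0.72, and at -0.09 when wild-type replicate 1 was left out, and its second probe set, also brighter than the median, at -0.049 ± 0.41. On the lower side, Tenm2, a teneurin that binds latrophilins, differed by -0.48 ± 0.27, Lingo1, part of the Nogo receptor complex, by -0.33 ± 0.28, and Rtn4r, the Nogo receptor that Olfm1 binds, by -0.14 ± 0.20, all at levels below the median probe set. With 1 array left out, Tenm2 ran from -0.73 to -0.24, weakest without wild-type replicate 1, Lingo1 from -0.54 to -0.07, weakest without mutant replicate 3, and Rtn4r from -0.26 to -0.011, weakest without mutant replicate 1. Each of these genes had a limma adjusted p of 0.999.

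The BMP and chordin pathway was examined because Olfml3 has been linked to BMP4 and a frog relative, ONT1, promotes the breakdown of the BMP antagonist chordin. Of a list of 24 genes, 23 were measured, with 16 higher and 7 lower in mutants, 0 called and a median difference of 0.07 (log2), against -0.01 over all genes. Without wild-type replicate 1, 9 of 23 were higher and the median was -0.10, so the count rested on that array. Bmp4 itself had 6.60, 7.91 and 6.44 in mutants, against 6.59, 6.62 and 6.81 in wild types, with mutant replicate 2 above the rest and the other arrays mixed. Chrd (chordin) was dim and had 3.57 ± 0.13 in mutant lenses and 3.55 ± 0.10 in wild-type lenses (SD, n = 3 each). Bmp4 and Chrd are named here in addition to the genes of lowest p.

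Bmp1, the protease that cleaves chordin, had log2 levels of 5.44, 5.36 and 5.21 in mutants, against 5.76, 5.63 and 5.82 in wild types. Every mutant was below every wild type, as for 4.61% of all probe sets. The difference was -0.40 ± 0.17 (SE, limma adjusted p = 0.999). Its other probe sets, both dim, differed by -0.49 ± 0.54 and -0.33 ± 0.20. The signal transducers Smad1 and Smad9 differed by -0.53 ± 0.34 and -0.19 ± 0.16, with Smad9 at dim levels. Smad9 too had every mutant below every wild type. Smad1 differed by -0.90 without wild-type replicate 1 and by -0.31 without wild-type replicate 2. Twsg1, an extracellular BMP modulator, differed by 0.57 ± 0.44, the ligand Bmp7 by 0.43 ± 0.37 and the receptor Bmpr1a by 0.64 ± 0.61, and without wild-type replicate 1 these were 0.09, 0.09 and -0.11. A second Bmp7 probe set above the median level went the other way, at -0.22 ± 0.39, and the other Bmpr1a probe sets above it differed by 0.39 to 0.46.

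**Figure D3:**
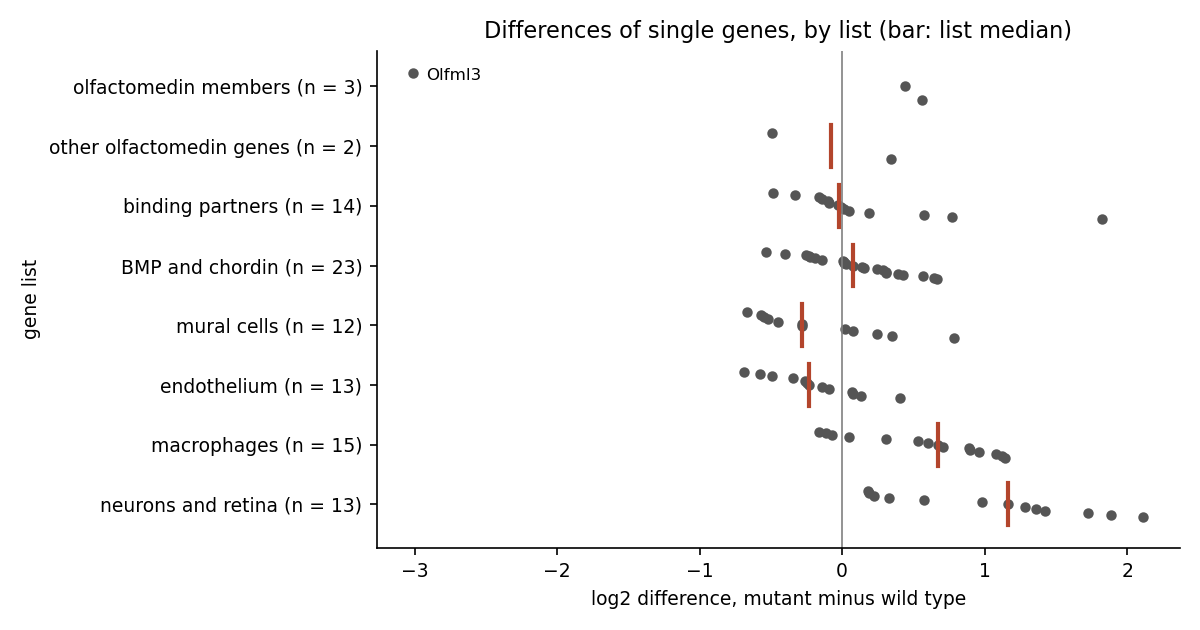
Log2 difference, mutant minus wild type (horizontal axis), of each gene's brightest probe set, by gene list (rows, with the number measured); each point is a gene and red bars are list medians, with none drawn for the 3 members. Olfml3, chosen by this contrast, is at -3.01, and the mural and endothelial genes lie between -0.69 and 0.79.

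Markers of the cells that carry olfactomedin genes elsewhere were read on the same arrays. Mural and endothelial cells of the vessels around the lens were covered by 12 and 13 genes, all of them measured, of which 9 had higher and 16 lower values in mutants and 0 were called. Their differences ran from -0.69 to 0.79 (log2). The mean of the mural list was 6.24, 6.42 and 5.84 in mutants, against 6.50, 6.21 and 6.24 in wild types, and that of the endothelial list was 6.43, 6.74 and 6.39 in mutants, against 6.87, 6.60 and 6.64 in wild types. Both overlapped between the groups. The median difference was -0.28 for the mural and -0.23 for the endothelial list, and -0.09 and 0.02 without wild-type replicate 1. The marker genes named here and below were chosen after their values were seen. The pericyte receptor Pdgfrb differed by 0.08 ± 0.26 (SE) and Kdr, the VEGF receptor of endothelium, by 0.08 ± 0.36. Lower values were seen for Des, a muscle intermediate filament protein (-0.67 ± 0.29), and for Notch3, a receptor of mural cells (-0.57 ± 0.27). Notch3 differed by -0.33 without wild-type replicate 1. Among endothelial genes, the TGF-beta co-receptor Eng stood at -0.69 ± 0.61, and at 0.023 when wild-type replicate 1 was left out. The tight junction protein Cldn5 stood at -0.58 ± 0.44, and at -0.24 without wild-type replicate 3. Of the 9 higher genes, the largest differences were those of Acta2 in the mural list (0.79 ± 0.68) and Esam in the endothelial list (0.41 ± 0.31).

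Of 15 macrophage and microglia genes, all measured, 12 had higher values in mutants, with a median difference of 0.67, and 0 were called. The list mean was 5.17, 6.45 and 5.31 in mutants, against 5.14, 5.07 and 4.99 in wild types, so mutant replicate 2 was highest. Olfml3 was 4.37 in that array, a level at which its signal above background is unknown, so nothing is read from it. Without mutant replicate 2 the median difference of the list was 0.19. Every mutant array was above every wild-type array for 2 of the 15, against 3.74% of all probe sets. Both were dim: Ptprc (CD45), a phosphatase of all leukocytes, at 1.08 ± 0.36, and Cd68, a lysosomal protein of macrophages, at 0.90 ± 0.37. Without mutant replicate 2 they differed by 0.77 and 0.50. The microglial genes P2ry12 and Cx3cr1, also dim, were among the 3 with lower values and differed by -0.07 ± 0.38 and -0.11 ± 0.60.

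Neuronal and retinal genes had higher values in mutants, none of them past the threshold. Of a list of 15, 13 were measured, all 13 of them higher, with a median difference of 1.16 and 0 called. Every mutant array was above every wild-type array for 6 of the 13, against 3.74% of all probe sets. The list mean was 7.39, 7.12 and 6.71 in mutants, against 5.20, 6.33 and 6.58 in wild types, and 10 of the 13 were brighter than the median probe set. Wild-type replicate 1 was lowest for this list, and without it 11 of 13 genes were higher, with a median of 0.58. That array was also lowest for the brighter probe sets of Olfm3 and Gria2, and for Bmpr1a (8.12) and Twsg1 (9.72) of the BMP list. For the brightest Olfm1 probe set it was the highest wild type, at 8.43. The part of neural RNA in the values of Olfm1, Olfm3 and Gria2 was not tested.

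Lens genes were read in the same way, and some were lower in mutants while others differed little or were higher, none past the threshold. Of 12 lens fibre genes, 9 were measured, and 8 of these had lower values in mutants, with a median difference of -0.15 and 0 called. The list mean was 12.07, 12.27 and 12.25 in mutants, against 12.55, 12.49 and 12.66 in wild types. These means did not overlap, but how often lists of genes separate in this way is unknown, so nothing is read from it. Of the 9 genes, 2 had every mutant array below every wild-type array, against 4.61% of all probe sets. These were Dnase2b, the nuclease that degrades fibre cell DNA, at -1.44 ± 0.41, and Bfsp1 (filensin), a beaded filament protein, at -0.65 ± 0.22. Cryaa, Cryba1 and Crygs differed by -0.05 ± 0.17, -0.02 ± 0.16 and -0.02 ± 0.18, and Mip by 0.03 ± 0.29.

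The 9 lens epithelium genes, all measured, had 4 lower and 5 higher values and 0 calls. Their mean was 8.75, 8.71 and 8.68 in mutants, against 8.67, 9.03 and 9.21 in wild types. The mutants lay below every wild type for 3 of the 9, against 4.61% of all probe sets. These were Cdh1 (E-cadherin) at -1.29 ± 0.30, the amino acid transporter Slc38a3 at -1.04 ± 0.40 and, at dim levels, the transcription factor Foxe3 at -0.71 ± 0.29. Among the 5 higher, the transcription factor Pax6 differed by 0.47 ± 0.47 and the integrin subunit Itga6 by 0.23 ± 0.28. Without wild-type replicate 1, 0 of 9 genes were higher in either lens list, with medians of -0.28 for fibre and -0.22 for epithelium, and Slc38a3 differed by -0.68.

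Periocular stroma was covered by 14 genes, of which 13 were measured, with 9 higher in mutants, a median difference of 0.37 and 0 called. Col6a1, a chain of type VI collagen, was above the wild types in every mutant, at 1.27 ± 0.20, the 1 gene of the 13 for which this held. Such a separation was seen for 3.74% of all probe sets. The other way went 4 genes, among them Angptl7, at dim levels (-0.40 ± 0.35), and Foxc2 (-0.34 ± 0.41). Without wild-type replicate 1, 7 of 13 were higher, with a median of 0.22. Of 8 blood genes, 7 were measured, with 3 higher, 4 lower and 0 called. The part of vessel, lens, stromal or immune cell RNA in the values of Olfml3 was not tested.

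**Figure D4:**
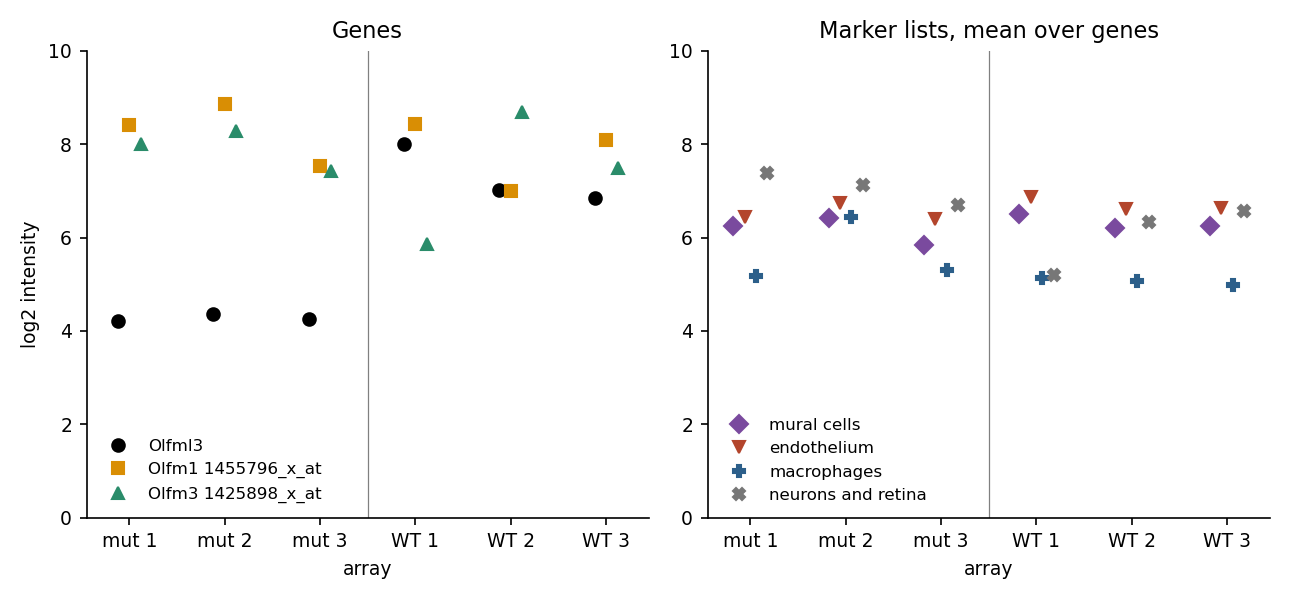
Log2 intensity (vertical axes) by array (horizontal axes; mut, mutant; WT, wild type) for Olfml3 and the brightest probe sets of Olfm1 and Olfm3 on the left, and the mean over genes of 4 marker lists on the right. Olfml3, chosen by this contrast, separates the groups. The mural and endothelial means overlap, and the neuronal mean is lowest in wild-type replicate 1, at 5.20.

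The genes whose pattern across the 6 arrays was most like that of Olfml3 were sought among 6762 genes brighter than the median probe set, by Pearson correlation of log2 levels. The closest 5 were Gstm2 (r = 0.97), Pygl (0.97), Spag5 (0.97), Cask (0.96) and Lix1 (0.96). Every mutant array was below every wild-type array for each of them, so the arrays form 2 clusters and r mainly follows the gap between the groups. These correlations share the arrays and the contrast that chose Olfml3 and are given as a description.

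Gstm2, a glutathione transferase, had the highest correlation, with 5.96, 5.77 and 6.11 in mutants, against 9.11, 7.67 and 8.41 in wild types (log2), and wild-type replicate 1 was the highest array for both genes, while the order of the arrays within each group differed. Its difference was -2.45 ± 0.37 (SE), and probe sets of close relatives can share signal. Pygl, the liver form of glycogen phosphorylase, had 5.11, 5.10 and 5.42 in mutants, against 7.56, 7.18 and 7.54 in wild types, a difference of -2.22 ± 0.20. Spag5, a protein of the mitotic spindle, differed by -1.10 ± 0.22, with its other probe sets at -1.37 ± 0.34 and, at dim levels, 0.05 ± 0.19. Lix1 differed by -0.76 ± 0.17.

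Cask, a membrane-associated scaffold kinase, had a high correlation but a small difference. Its level was 9.74 ± 0.01 in mutant lenses and 9.89 ± 0.03 in wild-type lenses (SD, n = 3 each), a difference of -0.15 ± 0.16 (SE), and its other probe sets differed by 0.33 ± 0.35 and -0.23 ± 0.49. For Olfm1 the closest genes were Fbxo16 (r = 0.99) and Fen1 (0.98), a nuclease of DNA replication, with differences of 0.13 ± 0.27 and 0.21 ± 0.29. For Olfm3 they were Adpgk (0.99), an ADP-dependent glucokinase, and Adam17 (0.99), a protease that sheds membrane proteins, with differences of 0.35 ± 0.42 and 0.26 ± 0.37. The groups overlapped for each of these 4 genes. Without wild-type replicate 1, Adpgk differed by -0.05 and Adam17 by -0.12. A dim Adpgk probe set differed by -0.19 ± 0.24. The other Adam17 probe sets differed by 0.04 ± 0.30 and, at dim levels, -0.53 ± 0.26.

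**Figure D5:**
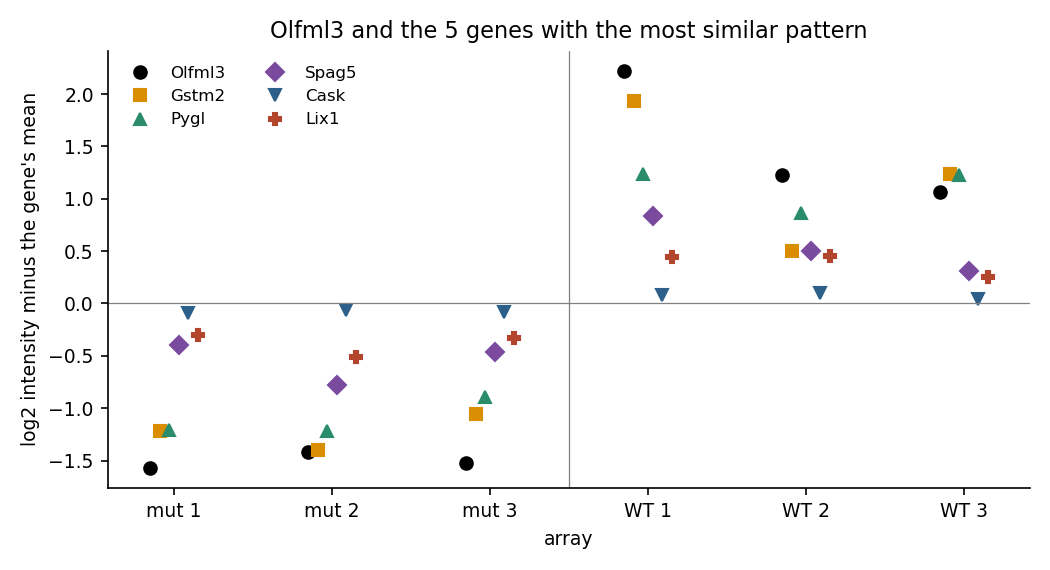
Log2 intensity minus the gene's own mean over the 6 arrays (vertical axis), by array (horizontal axis; mut, mutant; WT, wild type), for Olfml3 and the 5 genes most like it. All 6 genes lie below 0 in each mutant array and above 0 in each wild-type array, and their spans differ from -3.01 for Olfml3 to -0.15 for Cask in the difference of group means.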

How the data were processed

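Lens RNA of 3 mutants and 3 wild-type littermates was amplified by a Nugen Ovation kit, per the labels' protocols, and biotin-labelled for 1 array per sample. The authors deposited linear intensities for 22690 probe sets. RMA, which corrects background, normalises arrays by quantiles and summarises probes, is named per the submitters' processing notes without version. RMA usually returns log2 values; how these became linear is not stated. RMA can shrink differences between low values.

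The log2 of each intensity was taken with no pseudocount. The 64 control probe sets were left out, and 0 sample columns went unused. No pair of arrays had more than 0.186% equal values. Symbols came from the platform annotation of 2016, in which 20380 tested probe sets had 1 symbol, 691 several and 1555 none. A gene of a list was represented by its brightest single-symbol probe set, and dim means a mean at or below the median probe set, 5.26.

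R 4.3.3 and limma 3.58.1 (lmFit, eBayes, two-sided, no covariate, 3 arrays per group) gave differences, standard errors and p-values; Python 3.11.15 was used for tables. The fit was tested on simulated data. Promoters are RefSeq, GRCm38.p6.

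Members, lists, tests and alternatives were chosen with earlier results of these data known. Named genes were all probe sets of the members, the measured genes of the family list, the 3 genes of lowest p in each direction of the partner and BMP lists, and the genes of highest correlation, 5 for Olfml3 and 2 for each other member. Alternatives were the replicate block, leaving out arrays, centring on array medians, quantile normalisation, a filter on dim probe sets, a pseudocount of 16, a trended prior, array weights, a 3' to 5' covariate, a threshold of 0.1 and averaging over all probe sets of a gene.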

Additional observations from a re-analysis of the deposited data

How the results depend on the processing

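The Olfml3 difference was negative under all 15 alternatives, between -3.23 and -2.29, with the weakest value, -2.29, under a pseudocount of 16, which by construction shrinks differences of low intensities. Leaving out 1 array gave -3.23 to -2.65. In 11 of the 15 no probe set (0) had a lower difference, and in the other 4 there was 1. As this contrast chose Olfml3, its sign and rank under these settings are a description and not a test. limma called 0 probe sets under every alternative except array weights, which called 7 with wild-type replicate 1 weighted 0.224 and wild-type replicate 3 weighted 5.65; leaving out 1 array gave 0 to 0, and a threshold of 0.1 gave 0. Among those 7 were Pygl (-2.30) and Gstm2 (-2.42). The count of BMP and chordin genes higher in mutants was 9 without wild-type replicate 1, and 9 without it and mutant replicate 2, against 16 with all arrays. With all probe sets of a gene averaged, 0 of the 2 other olfactomedin genes were higher, against 1. These alternatives were run for the probe sets of the members. They were also run for the brightest probe set of the genes named by rule in the family, partner, BMP and likeness lists. For Olfml3 only the difference was followed, and no call is given. Apart from Pygl and Gstm2, the others stayed on their side of the threshold. No such difference that was over 1 standard error from 0 both with all arrays and under the alternative changed sign. Bmp4, Hipk1 and most named marker genes were recomputed only with 1 array left out. Other secondary probe sets and Syt6, Chrd, Tfap2a, Acta2, Esam, Angptl7, Foxc2, Pax6, Itga6, Cryaa, Cryba1, Crygs and Mip were recomputed singly under no alternative. The replicate numbers did not pair the samples: deviations of same-numbered arrays from their group means correlated at -0.07, -0.26 and -0.16. With the replicate number as a block, Olfml3 differed by -3.01 and 0 probe sets were called. No depth or detection call is known, and signal over background of the dim probe sets cannot be judged.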
